A study of Mus musculus with 9 samples.

Results

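Collagens, laminins and 8 further extracellular matrix genes were followed in the hippocampus of hAPP-J20 mice and of non-transgenic mice. The members were the protein-coding genes whose symbol is Col, a number, a and a number, or Lama, Lamb or Lamc and a digit, together with Ecm1, Dcn, Lum, Bgn, Fn1, Ogn, Postn and Sparc. A mean of at least 0.5 TPM (the authors' transcript abundance, scaled by transcript length and library size) over the 9 libraries was also required. Of 63 such symbols, 49 reached the minimum, out of 55536 genes in all and 18585 genes at that level. Collagen names carry the type and the chain, so that Col1a1 and Col1a2 encode the partner chains of type I collagen.

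The extracellular matrix of the brain is of several kinds. Basement membranes around blood vessels and under the meninges are sheets of type IV collagen and laminin, which is a trimer of an alpha, a beta and a gamma chain. Fibrillar collagens and small leucine-rich proteoglycans such as decorin lie mainly in the meninges and around large vessels and are made by fibroblasts, while the space between neurons holds hyaluronan and proteoglycans and few collagen fibrils. One transmembrane collagen, Col25a1, is made by neurons, and its shed ectodomain is known as a component of amyloid plaques.

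hAPP-J20 mice carry a mutant human amyloid precursor protein transgene under the PDGF-B promoter, which drives it in neurons, and they form plaques in the hippocampus with age. The 9 RNA-seq libraries were 3 from transgenic mice at 24 weeks (Tg 24w), 3 from transgenic mice at 15 weeks (Tg 15w) and 3 from non-transgenic, wild-type mice (nTg), namely replicates 1 and 3 at 24 weeks and replicate 2 at 15 weeks. Tg_24w_3 stands for replicate 3 of Tg 24w, and the others are named likewise. The study's question was how the transgenic hippocampus differs before plaques, at 15 weeks, and once they have formed, at 24 weeks. Because nTg has 1 library at 15 weeks, the nTg libraries of both ages served as 1 group, and both comparisons against nTg share these controls. In the labels each age is also a batch of its own, and these cannot be told apart.

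Library totals ran from 12733452 to 21529266 counts. Mouse App stood at 804 to 1542 CPM (counts scaled to library size) in Tg and at 1023 to 1501 CPM in nTg, and as the files list mouse genes, without a row for the human gene, App does not check the genotype labels. Markers of hippocampal neurons summed to 1049 to 1405 TPM in the 9 libraries. One library, Tg_24w_3, stood apart from the rest, with 84.6 on the first principal component against −30.9 to 4.87 in the other 8. nTg_24w_1 held both Xist (7.34 CPM) and Ddx3y (39.0 CPM), whereas every other library clearly held only one of them. Xist stood at 48.5 to 114 CPM, with Ddx3y at 0, in Tg_24w_3, Tg_15w_1, Tg_15w_3 and nTg_24w_3. Ddx3y stood at 28.1 to 57.3 CPM, with Xist at most 0.149 CPM, in Tg_24w_1, Tg_24w_2, Tg_15w_2 and nTg_15w_2. By these genes each group mixed the sexes, in differing parts, and the fit had no term for sex. Tg_24w_3 was the only Tg 24w library with the Xist pattern. Calls of members that changed without Tg_24w_3, nTg_24w_1 or both are given with the leading results or with the counts over the list. Some of the values that moved are given there too.

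Levels spanned more than 2 orders of magnitude among the 49 genes. Sparc, a collagen-binding matricellular glycoprotein that astrocytes and vessels make, was the highest at 136 to 181 TPM (mean 161). Decorin (Dcn), a proteoglycan that binds collagen fibrils, came next at 30.1 to 65.3 TPM (mean 42.0), and Col9a3, a chain of the fibril-associated type IX collagen, followed at 9.56 to 24.4 TPM (mean 17.5). Osteoglycin (Ogn, mean 12.6 TPM), Col6a1 (11.8 TPM), Col4a2 (9.93 TPM) and Col25a1 (9.46 TPM) completed the 7 highest. The 4 adhesive and matricellular glycoproteins (Sparc, Ecm1, Fn1, Postn) held 45.4% of the summed TPM of the members and the 4 small leucine-rich proteoglycans (Dcn, Ogn, Bgn, Lum) 17.9%. The 7 fibril-associated collagens held 8.62% and the 9 fibrillar collagens 4.53%, so the classic fibril-forming chains were a minor share of these transcripts. The 14 symbols under the minimum ran from Col6a6 (0.0665 TPM) to Col4a6 (0.484 TPM), and the lowest members were Col4a4 (0.510 TPM) and Postn (0.533 TPM). Among the genes under the minimum were Col2a1, the fibrillar collagen of cartilage (0.208 TPM), and Col9a1, the remaining chain of collagen IX (0.177 TPM). All 49 members passed the filter on low counts and were tested, and the lowest count of a member in a library was 11, for Col15a1 in Tg_24w_3.

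**Figure D1:**
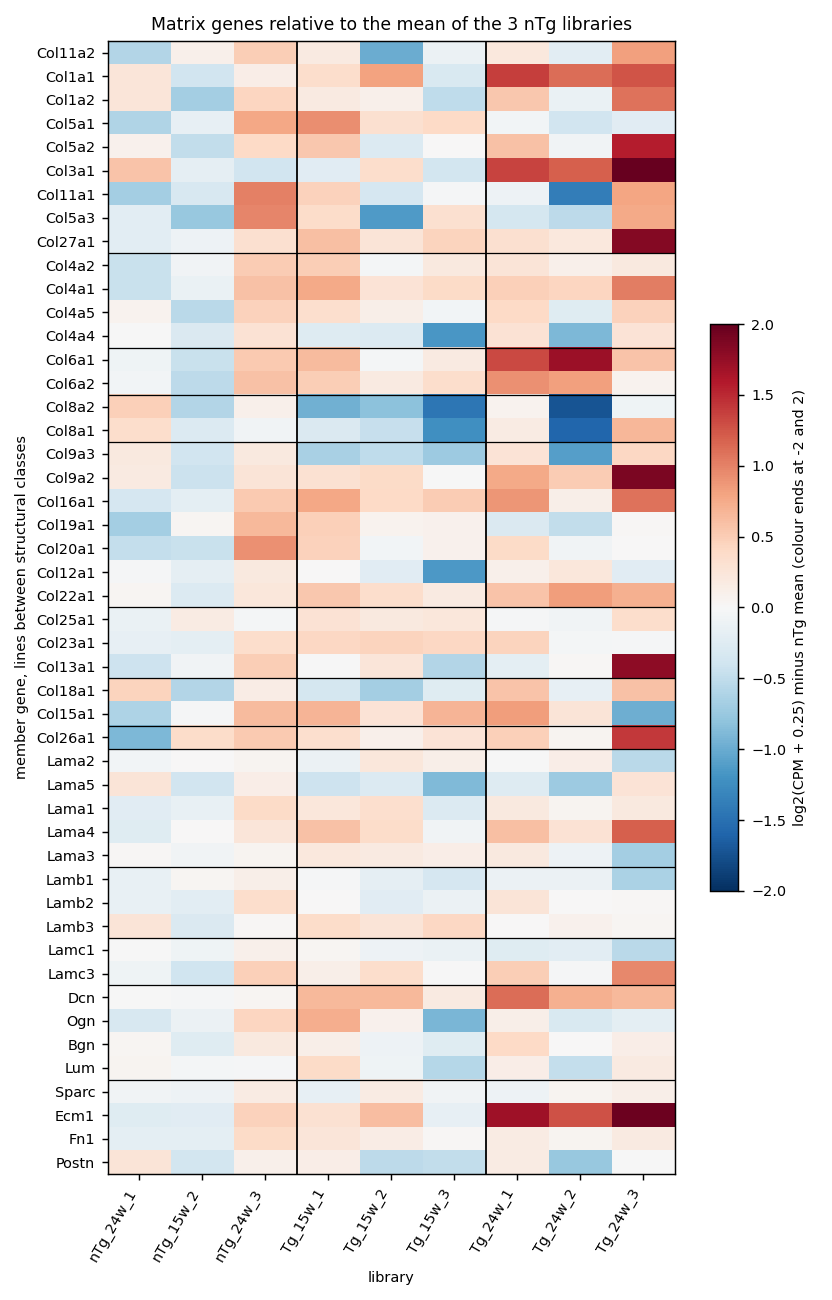
Heat map of 48 of the 49 genes (rows, grouped by structural class) in the 9 libraries (columns), as log2(CPM + 0.25) minus the mean of the 3 nTg libraries, red for higher and blue for lower. Ecm1, Col1a1 and Col3a1 are red in all 3 Tg 24w columns, Col8a2 is blue in all 3 Tg 15w columns, and Tg_24w_3 holds most of the darkest red cells.

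Members differ in the sequence before their transcription start. Upstream sequences of 3 members are shown because the results turn on them: Ecm1 passed the test at 24 weeks, Col3a1 had the largest difference there, and Col8a2 had the largest difference at 15 weeks. They are from RefSeq (GRCm38.p6), end at the base before the annotated start and read 5′ to 3′ on the gene's strand, and all 3 were chosen after their values were seen. Capitals mark matches on either strand. The motifs searched were the TATA box, spelled TATAAA, the box spelled CCAAT, the GC box, spelled GGGCGG, the AP-1 element, spelled TGANTCA, and the palindromic SMAD element, spelled GTCTAGAC.
Ecm1, chr3:95739570-95739819, minus strand: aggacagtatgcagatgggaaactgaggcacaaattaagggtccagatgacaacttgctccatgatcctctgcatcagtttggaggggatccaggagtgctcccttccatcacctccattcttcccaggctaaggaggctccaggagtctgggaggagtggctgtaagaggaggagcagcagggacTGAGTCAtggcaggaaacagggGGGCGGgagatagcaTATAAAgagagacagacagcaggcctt
Col3a1, chr1:45311288-45311537, plus strand: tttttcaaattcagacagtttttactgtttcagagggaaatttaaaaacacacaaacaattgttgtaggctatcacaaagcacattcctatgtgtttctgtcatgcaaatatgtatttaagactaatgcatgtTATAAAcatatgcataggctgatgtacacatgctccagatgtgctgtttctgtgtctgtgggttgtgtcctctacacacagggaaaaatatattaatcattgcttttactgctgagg
Col8a2, chr4:126286544-126286792, plus strand: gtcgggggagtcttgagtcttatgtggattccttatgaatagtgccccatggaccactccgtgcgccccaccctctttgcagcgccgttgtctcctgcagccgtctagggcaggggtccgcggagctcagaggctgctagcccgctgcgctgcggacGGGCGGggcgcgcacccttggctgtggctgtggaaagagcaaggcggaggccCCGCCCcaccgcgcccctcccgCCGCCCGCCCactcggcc
The Ecm1 window (54% G and C) held a TATAAA match near its end, a GC box and an AP-1 match. The Col3a1 window (35.2% G and C) held a TATAAA match alone, which lies much farther from the start. The 249 bases before Col8a2 (69.9% G and C) held 4 GC boxes, of which the last 2 overlap, and no TATA box; 1 base next to the start was left out because it is exonic in the annotation. Promoter entries existed for 34 of the 49 members. Among these a GC box was found in 58.8% against 33.0% of 32536 promoters of all genes, a TATA box in 14.7% against 12.3%, the CCAAT motif in 29.4% against 33.8%, and an AP-1 match in 5.88% against 6.73%. The SMAD palindrome was found in 0 of 34 members and in 0.169% of all promoters. The 32536 are all distinct entries, without a limit on gene type or level, while each member gave 1 entry. The shares thus come from unlike sets, and these matches describe letters only.

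Before plaques, matrix genes of 15-week transgenic hippocampus were compared with nTg. No member passed the test (edgeR quasi-likelihood, adjusted p under 0.05), nor did any of the 17457 genes tested (0.0% called), while 1 member was higher and 1 lower at an unadjusted p under 0.05. Those were Dcn, with higher values in Tg 15w, and Col8a2, with lower ones. DESeq2 called 2 genes and voom 5, none of them members.

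Col8a2 encodes a chain of the short-chain network collagen VIII, known from the membrane under the corneal endothelium and from vessels. It stood at 4.73, 5.37 and 3.99 TPM in Tg 15w and at 14.7, 6.61 and 10.6 TPM in nTg_24w_1, nTg_15w_2 and nTg_24w_3. All 3 transgenic libraries lay below all nTg libraries, although nTg_15w_2, of the same age, was the nTg library nearest to them. The log2 difference was −1.13 ± 0.39 (SE, edgeR adjusted p = 1). Against the 1 nTg library of 15 weeks, assumed to vary like the other groups, it was −0.48, and without nTg_24w_1, the highest library, −0.86. Its partner chain Col8a1 stood at 1.88 to 3.07 TPM in Tg 15w and at 3.37 to 5.47 TPM in nTg, with a log2 difference of −0.65 ± 0.43. Col9a3 behaved alike in rank, at 12 to 13.7 TPM in Tg 15w and 15.5 to 24.4 TPM in nTg, with a log2 difference of −0.65 ± 0.31 (edgeR adjusted p = 1). Lama5, the laminin alpha chain of mature vessels, stood at 0.850 to 1.13 TPM in Tg 15w and 1.09 to 1.84 TPM in nTg, with a log2 difference of −0.55 ± 0.28. For Col8a1, Col9a3 and Lama5 too, nTg_15w_2 was the lowest nTg library (3.37, 15.5 and 1.09 TPM). Over the alternatives their log2 differences ran from −0.841 to −0.36, −0.821 to −0.245 and −0.728 to −0.126.

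Markers of choroid plexus, the secretory epithelium of the ventricles, moved with these collagens. The 15 markers, led by Ttr with 97.3% of their TPM, summed to 3602 to 6481 TPM in Tg 15w, 3421 to 11750 TPM in Tg 24w and 9194 to 12670 TPM in nTg. Without Ttr the sums were 113 to 171, 107 to 299 and 204 to 434 TPM. At 15 weeks 0 of 15 markers had a positive log2 difference from nTg (median −0.96), and none passed the test. Oligodendrocyte lineage markers had 1 of 9 positive (median −0.32), at 1140 to 1580 TPM in Tg 15w and 1646 to 1910 TPM in nTg, and endothelial markers 2 of 15 (median −0.14). Both Col8a2 and the marker sum without Ttr were lowest in Tg_24w_2 (3.0 TPM beside 107 TPM) and highest in nTg_24w_1 (14.7 TPM beside 433 TPM). Every marker was detected in every library. The part of these cell types in the Col8a2, Col9a3 and Lama5 differences was not tested, and in bulk tissue fewer cells of a type and less RNA per cell cannot be told apart.

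In the other direction, Dcn stood at 44.7, 45.9 and 38.3 TPM in Tg 15w and at 32.0, 30.1 and 30.8 TPM in nTg. The nTg libraries lay close together and all below Tg 15w. The log2 difference was 0.51 ± 0.17 (edgeR adjusted p = 1). Beside it, Lum, the gene of the related proteoglycan lumican 46984 bases downstream on chromosome 10, stood at 4.76 to 7.97 TPM in Tg 15w and 6.32 to 7.15 TPM in nTg (log2 difference −0.05 ± 0.26). Col25a1 stood at 10.1, 9.80 and 11.6 TPM in Tg 15w and at 8.56, 10.03 and 8.55 TPM in nTg, a log2 difference of 0.23 ± 0.14 (edgeR adjusted p = 1). In TPM the lowest Tg 15w library lay under the highest nTg library, while in TMM-normalised CPM the groups were apart. Another transmembrane collagen, Col23a1, stood at 4.19 to 5.0 TPM in Tg 15w and 2.93 to 4.22 TPM in nTg (log2 difference 0.42 ± 0.20).

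Counted over the list, 5 members had CPM above nTg in all 3 libraries of Tg 15w (10.2%, against 4.85% of all genes), namely Dcn, Col23a1, Col25a1, Lamb3 and Lama3. Another 3, Col8a2, Col8a1 and Col9a3, were below nTg in all 3 (6.12%, against 5.69%). The shares of all genes at an unadjusted p under 0.05 were 1.32% higher and 1.97% lower, near the 2.04% that a single member makes. A positive log2 difference was found in 29 of 49 members (59.2%, against 50.0% of all genes), with a median of 0.10 over the members. The members' median was −0.01 without both Tg_24w_3 and nTg_24w_1, and 0.34 when nTg_24w_3 was left out, and 1 library thus moved it by more than the difference from all genes.

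After plaques, in 24-week transgenic hippocampus, Ecm1 rose against nTg and was the only member past the test. Its fold change was 3.20 (log2 difference 1.68 ± 0.27 SE, edgeR adjusted p = 0.0367, rank 19 by p among all genes). Of all genes, 0.132% passed in either direction and 0.0516% passed as higher, 9 in number, and the single member is 2.04% of the list. Beside Ecm1, the members with the smallest p were Dcn, Col1a1, Col3a1 and Col6a1, each with a positive difference of 0.85 to 1.71 and an adjusted p of 0.0908 to 0.180. Lamc1, the common laminin gamma chain, had the smallest p among members with a negative difference.

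Ecm1 (chromosome 3, 95734147 to 95739569, minus strand) encodes extracellular matrix protein 1, a secreted glycoprotein that binds perlecan, fibulins and matrix proteases. It stood at 13.8, 10.7 and 13.9 TPM in Tg 24w, at 4.91, 6.30 and 4.14 TPM in Tg 15w and at 3.72, 3.59 and 5.77 TPM in nTg. The lowest Tg 24w library lay well above the highest of the other 6. Group means were 12.8 ± 1.81, 5.12 ± 1.09 and 4.36 ± 1.22 TPM (SD, n = 3 each). The 2 nTg libraries of 24 weeks are among the low ones, and against them alone the log2 difference was 1.52, with no call among all genes (edgeR adjusted p = 0.907). Leaving out Tg_24w_1, any Tg 15w library or any nTg library ended the call (adjusted p 0.0514 to 0.259, log2 difference 1.55 to 1.95), while it was kept without Tg_24w_2 or Tg_24w_3 and without both Tg_24w_3 and nTg_24w_1 (1.37, adjusted p = 0.0377).

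**Figure D2:**
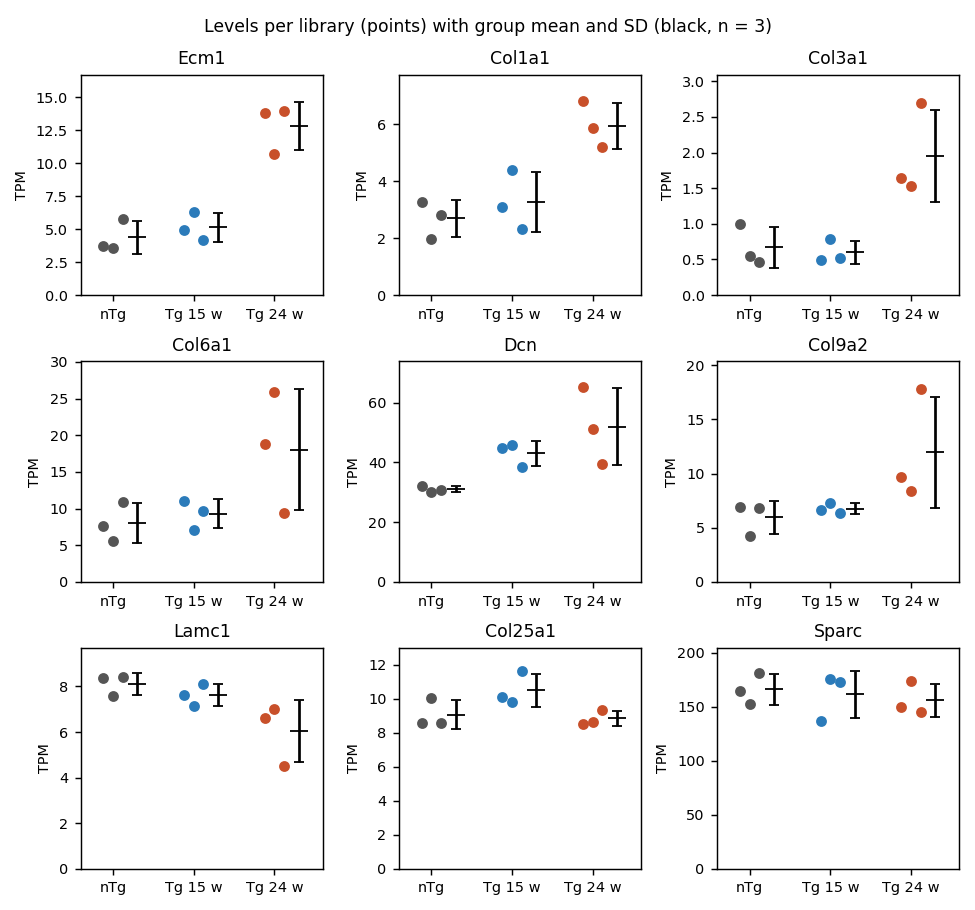
Levels in TPM (vertical axes, from 0) of 9 members in each library (points) with the group mean and SD (black, n = 3) for nTg, Tg 15w and Tg 24w. Tg 24w lies above the other groups for Ecm1, Col1a1 and Col3a1, the Tg 24w libraries lie far apart for Col6a1 and Col9a2, and Sparc overlaps in all groups.

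Type I and type III collagen, the main fibril-forming collagens of fibroblasts, had positive differences in Tg 24w that did not pass the test. Col1a1 (chromosome 11, 94936224 to 94953042) stood at 6.80, 5.86 and 5.20 TPM in Tg 24w and at 3.27, 1.98 and 2.82 TPM in nTg. The groups did not overlap, and the log2 difference was 1.26 ± 0.26 (edgeR adjusted p = 0.108). Col3a1 (chromosome 1, 45311538 to 45349706) stood at 1.65, 1.52 and 2.70 TPM in Tg 24w and at 1.0, 0.544 and 0.458 TPM in nTg. Again the groups were apart, with the highest value in Tg_24w_3, and the log2 difference was 1.71 ± 0.36 (edgeR adjusted p = 0.123). The second chain of type I collagen, Col1a2, stood at 4.27, 2.77 and 5.25 TPM in Tg 24w and at 3.73, 1.85 and 3.97 TPM in nTg, so the groups overlapped (log2 difference 0.51 ± 0.33). Over the 9 fibrillar collagens the median log2 difference was 0.51, with 6 positive. The signs of other fibrillar chains differed: Col5a2, which lies 24614 bases from Col3a1, had 0.84 ± 0.40, Col5a1 −0.34 ± 0.32 and Col11a2 0.27 ± 0.34. Col27a1 had 1.02 ± 0.42, Col11a1 −0.21 ± 0.53 and Col5a3 −0.15 ± 0.59. Col5a2 stood at 1.29, 0.829 and 2.18 TPM in Tg 24w and Col27a1 at 0.474, 0.458 and 1.20 TPM. The highest value of both was in Tg_24w_3.

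Type VI collagen forms beaded filaments around cells. Col6a1 (chromosome 10, 76708792 to 76726168) stood at 18.8, 25.9 and 9.39 TPM in Tg 24w and at 7.57, 5.63 and 11.0 TPM in nTg. Here Tg_24w_3 lay among the nTg libraries in TPM, though above them in TMM-normalised CPM, and the other 2 Tg 24w libraries were the highest of the series. The log2 difference was 1.23 ± 0.30 (edgeR adjusted p = 0.180), and without Tg_24w_3 it was 1.48 and passed (adjusted p = 0.0231). Col6a2, its partner 85161 bases away, stood at 3.49, 3.40 and 1.60 TPM in Tg 24w and 1.88, 1.27 and 2.76 TPM in nTg, a log2 difference of 0.61 ± 0.29. The third chain, Col6a3, was under the level minimum (mean 0.442 TPM).

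Among fibril-associated collagens, Col9a2 stood at 9.70, 8.39 and 17.8 TPM in Tg 24w and at 6.89, 4.23 and 6.79 TPM in nTg. Tg_24w_3 was the highest by far, and the log2 difference of 1.16 ± 0.32 (edgeR adjusted p = 0.248) was 0.62 without it. Its partner chain Col9a3 stood at 24.1, 9.56 and 22.3 TPM in Tg 24w, on either side of the nTg range of 15.5 to 24.4 TPM, with a log2 difference of −0.02 ± 0.30. Col19a1, an interneuron-made collagen of synapses in mouse, stood at 1.54 to 1.81 TPM in Tg 24w and 1.38 to 3.40 TPM in nTg (−0.36 ± 0.30). Col22a1 and Col16a1, named after their values were seen, had differences of 0.76 ± 0.24 and 0.72 ± 0.28 (edgeR adjusted p = 0.277 and 0.338).

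Basement membrane chains gave a mixed picture. Col4a1 and Col4a2, the chains of the type IV collagen of all vessels, start head to head on chromosome 8 and share 22 bases. Col4a1 stood at 8.45, 8.52 and 10.4 TPM in Tg 24w and 4.73, 5.65 and 9.11 TPM in nTg (log2 difference 0.61 ± 0.25, edgeR adjusted p = 0.349). Col4a2 stood at 10.6, 9.87 and 8.49 TPM in Tg 24w and 6.98, 8.67 and 12.7 TPM in nTg (0.13 ± 0.22). The nTg libraries overlapped Tg 24w for both genes, and nTg_24w_3 was the highest of nTg for both. Of the multiplexins, which link basement membranes to the tissue, Col18a1 (source of endostatin) had 0.32 ± 0.28 and Col15a1 0.18 ± 0.45.

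Of the laminin chains, several lay close to nTg or below it, while Lamc3 and Lama4 had positive differences. Lamc1, the gamma chain of most laminins, stood at 6.63, 7.02 and 4.49 TPM in Tg 24w and at 8.36, 7.57 and 8.42 TPM in nTg. All Tg 24w libraries were below all nTg libraries, and the log2 difference was −0.33 ± 0.14 (edgeR adjusted p = 0.353). Lamb1, the beta chain of several laminins, stood at 6.73, 7.0 and 3.96 TPM in Tg 24w and 7.10 to 7.96 TPM in nTg (−0.27 ± 0.16), with Tg_24w_3 the lowest in both genes. Lamb2, the beta chain of mature vessels and synapses, stood at 5.10 to 7.18 TPM in Tg 24w and 5.27 to 7.72 TPM in nTg (0.09 ± 0.18). Lama2, the alpha chain made by pericytes and astrocytes, had −0.11 ± 0.19 and Lama5 −0.22 ± 0.28. Lamc3 had 0.50 ± 0.29 (edgeR adjusted p = 0.484). Lama4, an endothelial alpha chain named after its values were seen, had 0.76 ± 0.30 (adjusted p = 0.336).

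Of the proteoglycans, Dcn (chromosome 10, 97479609 to 97518143) stood at 65.3, 51.0 and 39.5 TPM in Tg 24w against 30.1 to 32.0 TPM in nTg. All 3 were above every nTg library, and the log2 difference was 0.85 ± 0.17 (edgeR adjusted p = 0.0908). It passed without Tg_24w_3 (0.93, adjusted p = 0.0217) and without both Tg_24w_3 and nTg_24w_1 (0.91, adjusted p = 0.0197). Ogn (−0.15 ± 0.33), biglycan (Bgn, 0.18 ± 0.17) and Lum (−0.03 ± 0.26) lay near 0, and their groups overlapped.

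Other secreted glycoproteins lay near nTg, with overlapping groups. Sparc stood at 150, 173 and 145 TPM in Tg 24w and at 165, 153 and 181 TPM in nTg, a log2 difference of 0.02 ± 0.14 (edgeR adjusted p = 0.961, range −0.09 to 0.11 over the alternatives). Fibronectin (Fn1) had 0.11 ± 0.17 and periostin (Postn), a matricellular protein of fibroblasts, −0.19 ± 0.35. Col25a1 stood at 8.54, 8.62 and 9.34 TPM in Tg 24w, close to nTg and overlapping it, with a log2 difference of 0.09 ± 0.14 (edgeR adjusted p = 0.823). Its 9 libraries spanned only 8.54 to 11.6 TPM, among the narrowest ranges of the list.

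**Figure D3:**
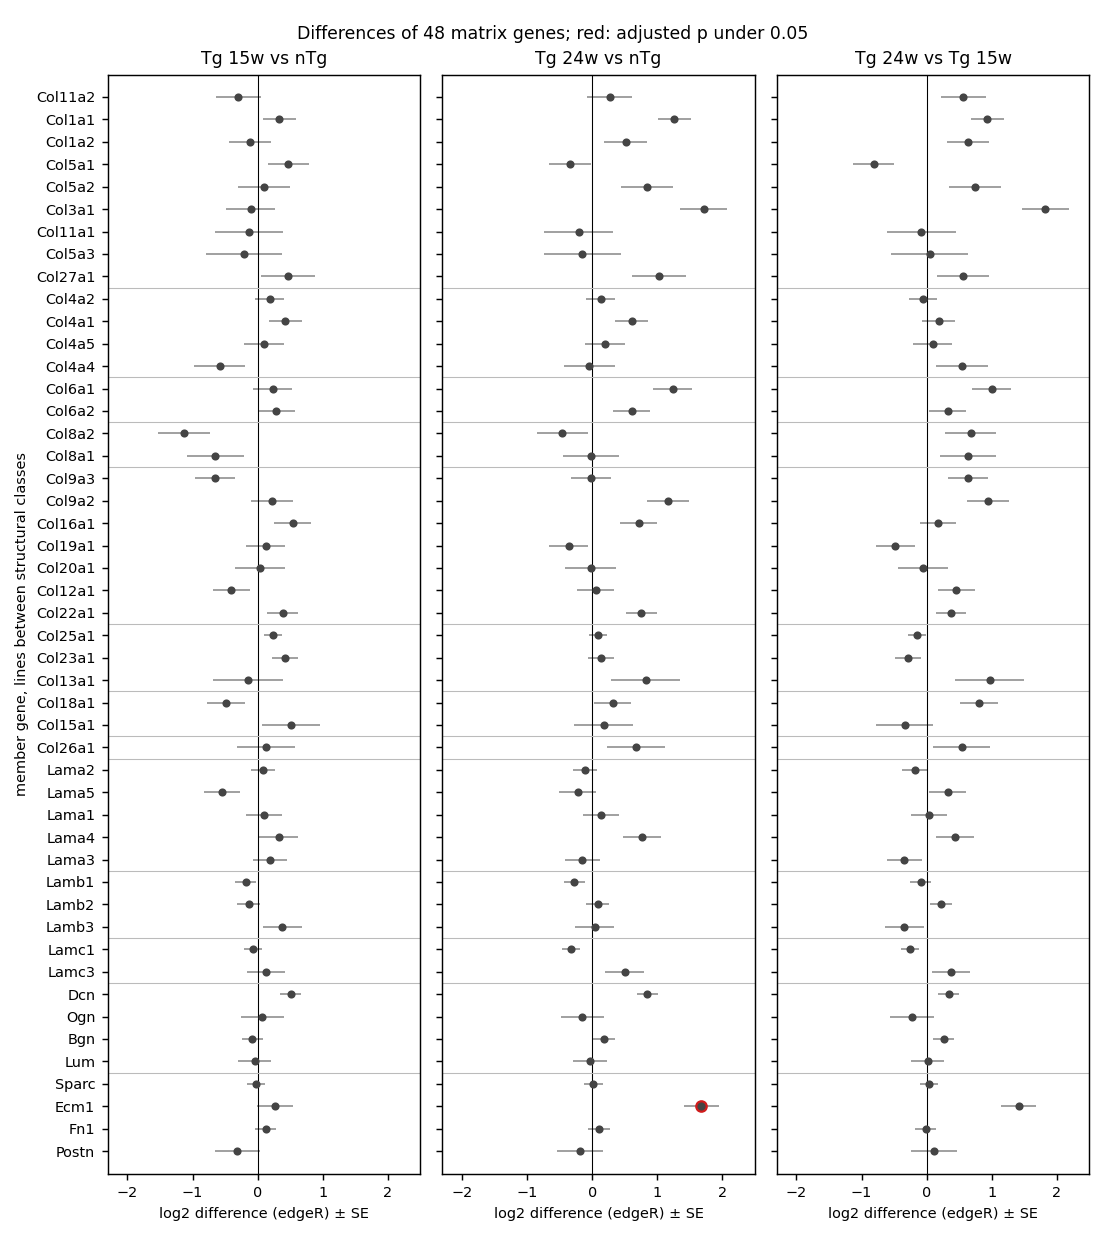
Log2 differences (horizontal axes, edgeR, bars SE) of 48 of the 49 genes for Tg 15w vs nTg, Tg 24w vs nTg and Tg 24w vs Tg 15w, 3 libraries a group, with lines between structural classes. The red ring marks Ecm1 in Tg 24w vs nTg (1.68), the one difference with an adjusted p under 0.05.

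Over the whole list, 11 members were higher in Tg 24w than in nTg at an unadjusted p under 0.05 (22.4%, against 7.68% of all genes) and 1 was lower (2.04%, against 5.34%). CPM did not overlap with nTg in 8 members that were higher (16.3%, against 9.72%) and in 1, Lamc1, that was lower (2.04%, against 7.14%). A positive log2 difference was found in 32 members (65.3%, against 53.3%), with a median of 0.13 over the members and 0.03 over all genes. The members' median was 0.03 without both Tg_24w_3 and nTg_24w_1, and 0.01 with the 24-week libraries alone. The alternatives gave 0 to 7 called members. Without both Tg_24w_3 and nTg_24w_1, 5 were called, all higher: Col3a1, Dcn, Col6a1, Ecm1 and Col1a1. DESeq2 called these 5 and Col9a2, and voom with quality weights called these 6 and Col6a2. With the 24-week libraries alone 0 members and 0 genes passed, and there Col3a1 stood at 1.56, Col1a1 at 1.06, Col6a1 at 1.0, Col9a2 at 0.94 and Dcn at 0.80 on the log2 scale.

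Markers of the cells that make these genes were read in the same libraries, from lists that hold no member. The 15 meningeal fibroblast markers summed to 248 to 548 TPM in Tg 24w, 202 to 263 TPM in Tg 15w and 238 to 367 TPM in nTg, and without Igfbp2, their most abundant gene, to 139 to 168, 107 to 132 and 77.9 to 148 TPM. At 24 weeks 13 of 15 had a positive log2 difference from nTg (median 0.49) and none passed the test. The 15 endothelial markers summed to 115 to 167 TPM in Tg 24w, 74.2 to 125 TPM in Tg 15w and 93.0 to 141 TPM in nTg, with 14 of 15 positive at 24 weeks (median 0.15). Pericyte and smooth muscle markers summed to 139 to 170, 136 to 142 and 117 to 164 TPM in the same order, with 8 of 12 tested positive (median 0.15), and Tagln was at 0 in a library. The part of meningeal or vascular tissue in the differences of Ecm1, Col1a1, Col3a1 and Dcn was not tested. Choroid plexus markers had 0 of 15 positive at 24 weeks (median −0.31), and astrocyte markers, at 1075 to 1449 TPM in Tg 24w and 1196 to 1383 TPM in nTg, had a median of 0.04. Blood markers had 4 of 5 positive (median 0.98), at 398 to 1836 TPM in Tg 24w and 472 to 862 TPM in nTg, neocortex and striatum markers 5 of 9 (median 0.41) and oligodendrocyte lineage markers 3 of 9 (median −0.24).

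**Figure D4:**
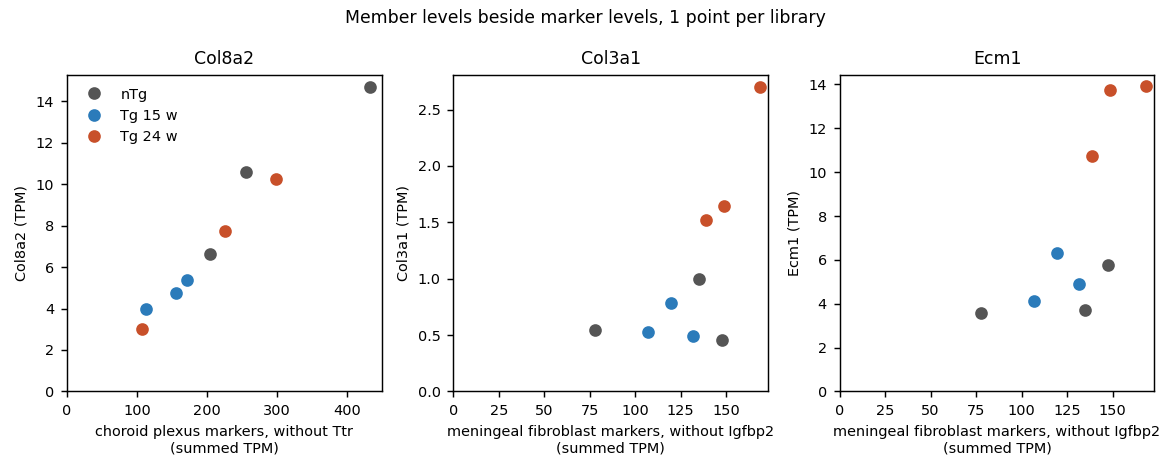
Levels of Col8a2, Col3a1 and Ecm1 (vertical axes, TPM) against the summed TPM of choroid plexus markers without Ttr or of meningeal fibroblast markers without Igfbp2 (horizontal axes), 1 point per library. Col8a2 goes with the choroid plexus sum from 3.0 TPM at 107 TPM to 14.7 TPM at 433 TPM, while Ecm1 in Tg 24w lies at 10.7 to 13.9 TPM with a fibroblast sum of 139 to 168 TPM, and at 3.59 to 6.30 TPM in the other 6 libraries with 77.9 to 148 TPM.

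Between the ages of the transgenic mice, no member passed the test when Tg 24w was compared with Tg 15w (0.0344% of all genes were called), and age equals batch here. Ecm1 had a log2 difference of 1.41 ± 0.27 (edgeR adjusted p = 0.119) and Col3a1 of 1.82 ± 0.36 (adjusted p = 0.145), with both genes higher in all 3 Tg 24w libraries. Col1a1 had 0.93 ± 0.25, Col6a1 1.0 ± 0.30 and Col9a2 0.95 ± 0.32 (adjusted p 0.215 to 0.235), the last 0.40 without Tg_24w_3. Col18a1 stood at 3.26, 2.01 and 2.75 TPM in Tg 24w and 1.60, 1.30 and 2.07 TPM in Tg 15w (0.81 ± 0.29, edgeR adjusted p = 0.241). Col5a1, which nucleates type I fibrils, had the smallest p among members with a negative difference, at 1.54, 1.27 and 1.14 TPM in Tg 24w and 2.96, 1.96 and 2.42 TPM in Tg 15w. These groups did not overlap, and the log2 difference was −0.81 ± 0.32 (edgeR adjusted p = 0.271).

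By count, 6 members were higher at an unadjusted p under 0.05 (12.2%, against 9.58% of all genes) and 1 was lower (2.04%, against 5.57%). In 8 members Tg 24w lay above Tg 15w without overlap (16.3%, against 10.6%), and in 4, Col5a1, Lamc1, Col19a1 and Lamb3, below it (8.16%, against 10.2%). A positive difference was found in 34 (69.4%, against 52.2%), with a median of 0.22 over the members and 0.02 over all genes. The members' median was 0.03 without Tg_24w_3, 0.02 without both Tg_24w_3 and nTg_24w_1 and 0.05 with voom. Without both Tg_24w_3 and nTg_24w_1, Col3a1 (1.38, adjusted p = 0.0279), Col6a1 (1.24, adjusted p = 0.0370) and Ecm1 (1.23, adjusted p = 0.0390) passed the edgeR test. Fibroblast and endothelial markers had 13 of 15 and 14 of 15 positive differences here (medians 0.59 and 0.33), choroid plexus 15 of 15 (0.44) and blood 5 of 5 (1.01), and their part in the members' differences was not tested.

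Ratios of TPM between related chains parted by group for some pairs and overlapped for others. This measure was chosen after values were seen and is given with no test. How often ratios of other gene pairs part by group was not counted, so no share stands beside these ranges. Col9a2 stood at 0.273 to 0.297 of Col9a3 in nTg, at 0.470 to 0.555 in Tg 15w and at 0.403 to 0.877 in Tg 24w, so that the nTg libraries of both ages lay together below all 6 transgenic ones. Col4a1 stood at 0.652 to 0.714 of Col4a2 in nTg, 0.778 to 0.845 in Tg 15w and 0.794 to 1.22 in Tg 24w, again with no overlap between nTg and either transgenic group. The ratio of Col6a1 to Col6a2 was 3.97 to 4.43 in nTg, 3.54 to 4.52 in Tg 15w and 5.39 to 7.61 in Tg 24w. That of Col1a1 to Col1a2 was 0.711 to 1.07, 0.989 to 1.43 and 0.989 to 2.12, with overlap between all groups. Col8a2 to Col8a1 (1.96 to 2.79, 1.54 to 2.12 and 1.45 to 2.30) and Lamb2 to Lamb1 (0.689 to 0.970, 0.786 to 0.953 and 0.895 to 1.29) overlapped as well.

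Genes that process, bind or induce the matrix were read from 6 lists of 130 genes, and 0 of them passed the test in any of the 3 comparisons. Of all genes tested, 0.0% were called in Tg 15w vs nTg, 0.132% in Tg 24w vs nTg and 0.0344% in Tg 24w vs Tg 15w. The 0 calls thus lie near the share of all genes. Among collagen folding and crosslinking enzymes (29 of 30 tested), 15 had a positive log2 difference at 24 weeks (median 0.00), and Plod1, a lysyl hydroxylase, stood at 9.60, 9.33 and 11.6 TPM in Tg 24w and 5.59, 7.74 and 8.78 TPM in nTg (0.59 ± 0.22, edgeR adjusted p = 0.324). Fkbp10, a collagen chaperone, had 0.44 ± 0.16 (adjusted p = 0.325) in the same comparison. At 15 weeks P3h4, part of the same lysyl hydroxylation complex, had −0.41 ± 0.14 (adjusted p = 1) with 12 of 29 positive.

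Among proteases, endocytic receptors and inhibitors (21 of 22 tested, 4 positive at 15 weeks and 10 at 24 weeks), Adamts1, which cleaves proteoglycans, stood at 4.31, 3.33 and 2.93 TPM in Tg 24w and 8.69, 7.79 and 5.46 TPM in nTg. The groups did not overlap, with a log2 difference of −0.94 ± 0.18 (edgeR adjusted p = 0.0907). Mrc2, an endocytic collagen receptor, had 0.83 ± 0.33 (adjusted p = 0.337). Of the cell surface receptors for collagen, laminin and fibronectin (24 of 25 tested, 9 positive at 15 weeks and 15 at 24 weeks), Cd44, the hyaluronan receptor, had 0.69 ± 0.25 (adjusted p = 0.329), and Ddr1, a collagen-binding kinase, −0.33 ± 0.14 at 15 weeks (adjusted p = 1).

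Other basement membrane genes were read next. Vwa1, which encodes a perlecan-binding protein, stood at 16.9, 15.4 and 22.9 TPM in Tg 24w, 7.74, 8.58 and 11.4 TPM in Tg 15w and 9.11, 8.88 and 8.91 TPM in nTg. Every Tg 24w library was above the other 6, and the log2 difference from nTg was 1.18 ± 0.21 (edgeR adjusted p = 0.0573). Npnt, an integrin ligand, had −0.78 ± 0.20 (adjusted p = 0.207), and Nid2, which joins laminin to collagen IV, −1.07 ± 0.35 at 15 weeks (adjusted p = 1). In this list 6 of 15 were positive at each age.

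Genes of the hyaluronan and proteoglycan matrix between neurons (18 of 19 tested) had 13 positive differences at 15 weeks and 7 at 24 weeks (medians 0.11 and −0.10). Tnr, a glycoprotein of perineuronal nets, stood at 23.8, 24.3 and 9.16 TPM in Tg 24w and 28.2, 28.9 and 29.6 TPM in nTg (−0.53 ± 0.23, edgeR adjusted p = 0.362). The low value is that of Tg_24w_3, in which the whole list summed to 920 TPM against 1698 to 2088 TPM in the other libraries. Of TGF-beta pathway genes, which can induce collagens (18 of 19 tested), 4 were positive at 15 weeks (median −0.11) and 9 at 24 weeks (median 0.01). The receptor gene Tgfbr1 stood at 6.12, 5.48 and 4.01 TPM in Tg 24w and 8.51, 8.83 and 7.73 TPM in nTg (−0.58 ± 0.17, edgeR adjusted p = 0.257). Smad7, an inhibitor of the pathway, had −0.46 ± 0.18 (adjusted p = 0.340). In Tg 24w against Tg 15w, Tgfbr1 had −0.56 ± 0.17 (edgeR adjusted p = 0.220). The ligand gene Tgfb1 had 0.75 ± 0.25 there (adjusted p = 0.233). At 15 weeks Ctgf, a matricellular target of the pathway that is also a marker of deep neocortex, had 0.67 ± 0.29 and Thbs1 −0.87 ± 0.38 (adjusted p = 1 for both).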

How the data were processed

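RNA of mouse hippocampus was sequenced in 9 libraries. Raw counts (whole numbers for each gene and library) and TPM are as the authors deposited them; FPKM played no part. Per the submitters' processing notes the tools included HISAT2 2.1.0, featureCounts 2.0.0, Trimmomatic 0.38, CASAVA and DESeq2 1.26.0, with GRCm38 as build. Whether counting used strand is not given in the sources used here, so genes that share exons cannot be separated: 13 members share exonic bases with another gene, at most 6.27% (Lamc3), and 2.50% for Ecm1 (Mir7014). Genes with no symbol (2339) held 1.88% of counts. Coordinates are from GENCODE M21.

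Counts were tested two-sided in 1 fit of 3 groups with edgeR 4.0.16 in R 4.3.3 (TMM, filterByExpr, quasi-likelihood), adjusted by Benjamini-Hochberg over 17457 genes at a threshold of 0.05; SE is the log2 difference over the square root of F. The test was run on simulated counts with the same spread for every gene and no outlying library. That check does not cover data with a library such as Tg_24w_3. Levels are TPM; overlap of groups was read on TMM-normalised CPM. Library totals set the depth (12733452 to 21529266 counts). The labels say biological replicates but not separate animals, and p-values measure only how far these samples spread. By Xist and Ddx3y each group held libraries of both sexes, so its libraries did not all come from 1 animal. Whether every library is a separate animal is not given, and part of the spread may be technical.

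Members, lists and tests were chosen with earlier results of these data known. Named were the 2 highest members of each of 13 structural classes and Col25a1. In each comparison the called members, the 5 of smallest p and up to 4 examples without overlap were added. From the pathway lists came only some of the genes with the 2 smallest p in a comparison. Other named genes were chosen after their values were seen. 1 member counted in the list is not reported here by name or in the figures. Ctgf was matched through its RefSeq synonym. Alternatives were DESeq2 1.42.0, limma 3.58.1 (voom with quality weights, and log2(TPM + 0.5)), RLE factors, no filter, a replicate block, 24-week libraries alone, the 15-week nTg library alone, and left-out libraries.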

Additional observations from a re-analysis of the deposited data

Results flagged for a closer look

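Col5a1, an alpha chain of type V collagen, had normalised counts above the nTg mean in all 3 Tg 15w libraries and below it in all 3 Tg 24w libraries. The log2 difference between the ages, Tg 24w minus Tg 15w, was −0.812 (edgeR adjusted p = 0.271), and it ran from −0.94 to −0.62 over the alternatives, with 1 call, when no filter on low counts was used. The nTg libraries themselves stood at 1.11 and 2.80 TPM at 24 weeks and 1.45 TPM at 15 weeks, so their range overlaps both transgenic groups. Whether the genotype difference itself changes with age was not tested. Age and batch cannot be told apart.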

How the results depend on the processing

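No called value changed sign under any alternative. In Tg 15w vs nTg, 0 genes passed in the main test, 2 with DESeq2, 5 with voom and 65 with no filter on low counts, where 1 member passed (Col8a2, lower); leaving out libraries moved the members' median between −0.013 and 0.341, the highest without nTg_24w_3. In Tg 24w vs nTg, the 23 genes became 218 (DESeq2), 238 (voom), 559 (no filter), 13 (limma on TPM), 0 (24-week libraries only) and 107 (without both Tg_24w_3 and nTg_24w_1), and the 1 member became 6, 7, 6, 0, 0 and 5. Leaving out 1 library gave 4 to 36 genes, 0 to 3 members and a members' median of 0.046 to 0.428: 36 genes and 3 members (Ecm1, Dcn, Col6a1) without Tg_24w_3, 4 to 13 genes and 0 members without Tg_24w_1, any Tg 15w or any nTg library, and a median of 0.428 without nTg_24w_3. In Tg 24w vs Tg 15w, the 6 genes became 289 (DESeq2), 102 (voom), 701 (no filter), 3 (limma on TPM) and 71 (without both libraries), and the 0 members became 3, 3, 8, 0 and 3; left-out libraries gave 1 to 14 genes. The cause of these shifts was not tested. Same-numbered libraries correlated at −0.237 to 0.290 in their deviations, and differently numbered ones at −0.301 to 0.284. No pairing shows in these values, but deviations from means of 3 libraries cannot exclude it. With the replicate block, 15 genes and 0 members passed in Tg 24w vs nTg. Among named members, 30, 43 and 18 values under alternatives (in the order of these comparisons) had another sign than the main one, and in none of these was either value called. A count as low as 11 limits the lowest members.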
